A study of Mus musculus with 8 samples.

Results

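Serine synthesis, one-carbon metabolism and the ATF4 stress programme were followed in activated mouse T cells kept with or without human beta-defensin-2 (hBD-2), through 38 genes chosen by symbol. They comprised 10 serine and one-carbon enzymes, 6 other amino acid enzymes, 9 amino acid transporters and 13 stress regulators. On the arrays, 37 of the 38 matched a named probe set, out of 19505 named genes in all, and Pycr1 was not analysed here. The 4 hBD-2 arrays held RNA of splenic CD4 and CD8 T cells that had been activated with CD3 and CD28 antibody beads and kept for 48 h with the peptide. The 4 PBS arrays held RNA of T cells activated in the same way for the same 48 h with the vehicle, phosphate-buffered saline. Both groups came from male wild-type C57BL/6 mice, and their age is not stated. The labels name 4 mice for the 8 arrays without linking arrays to mice, and they do not say that arrays of a group are separate cultures, so p-values measure the spread between these arrays. The peptide is human and the cells are murine, and its amount is labelled only as a volume per volume.

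Serine is made from a glycolytic intermediate by the enzymes PHGDH, PSAT1 and PSPH, in that order. Serine hydroxymethyltransferases then pass a carbon from serine to folate, in the cytosol through SHMT1 and in mitochondria through SHMT2, and the MTHFD enzymes turn the folate-bound carbon into forms used for purines and thymidylate. The transcription factor ATF4 is made when the kinase GCN2, encoded by Eif2ak4, or another kinase phosphorylates the initiation factor eIF2. With C/EBP partners it induces amino acid transporters, amino acid enzymes and stress regulators. Activated T cells are known to raise this metabolism as they begin to divide.

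Of the 37 measured members, 4 fell with hBD-2 and 0 rose (limma, Benjamini-Hochberg adjusted over all 19505 genes, threshold 0.05). Lower calls made up 10.8% of the members, against 3.66% of all genes tested. The members had a median level of 7.53, against 5.45 over all genes tested. With dim genes left out (under percentile 40 of mean level), 5 of the 34 members kept were lower. Of all genes kept, 1192 were lower in place of 713, which is a larger share than 3.66%, out of fewer genes. The part of level in the share of the members was not tested. Higher calls made up 0.800% of all genes, and calls in either direction 4.46%. At an unadjusted p under 0.05 (limma), 11 of the 37 members were lower and 2 were higher, against 2499 and 1842 of all 19505 genes. The members that fell were Shmt1 and Mthfd1l, enzymes of the folate cycle, Eif4ebp1, a brake on cap-dependent translation, and Eif2ak4, the amino acid sensing kinase. They were 1.62-fold, 1.58-fold, 1.56-fold and 1.33-fold lower. The groups did not overlap in 6 members that were lower and 2 that were higher, out of 37, while 9.36% of all genes were lower and 5.51% higher without overlap (14.9% in either direction). The median log2 fold change of the 37 members was -0.07, against 0.02 over all genes tested. Over the genes kept with dim genes left out it was -0.03.

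**Figure D1:**
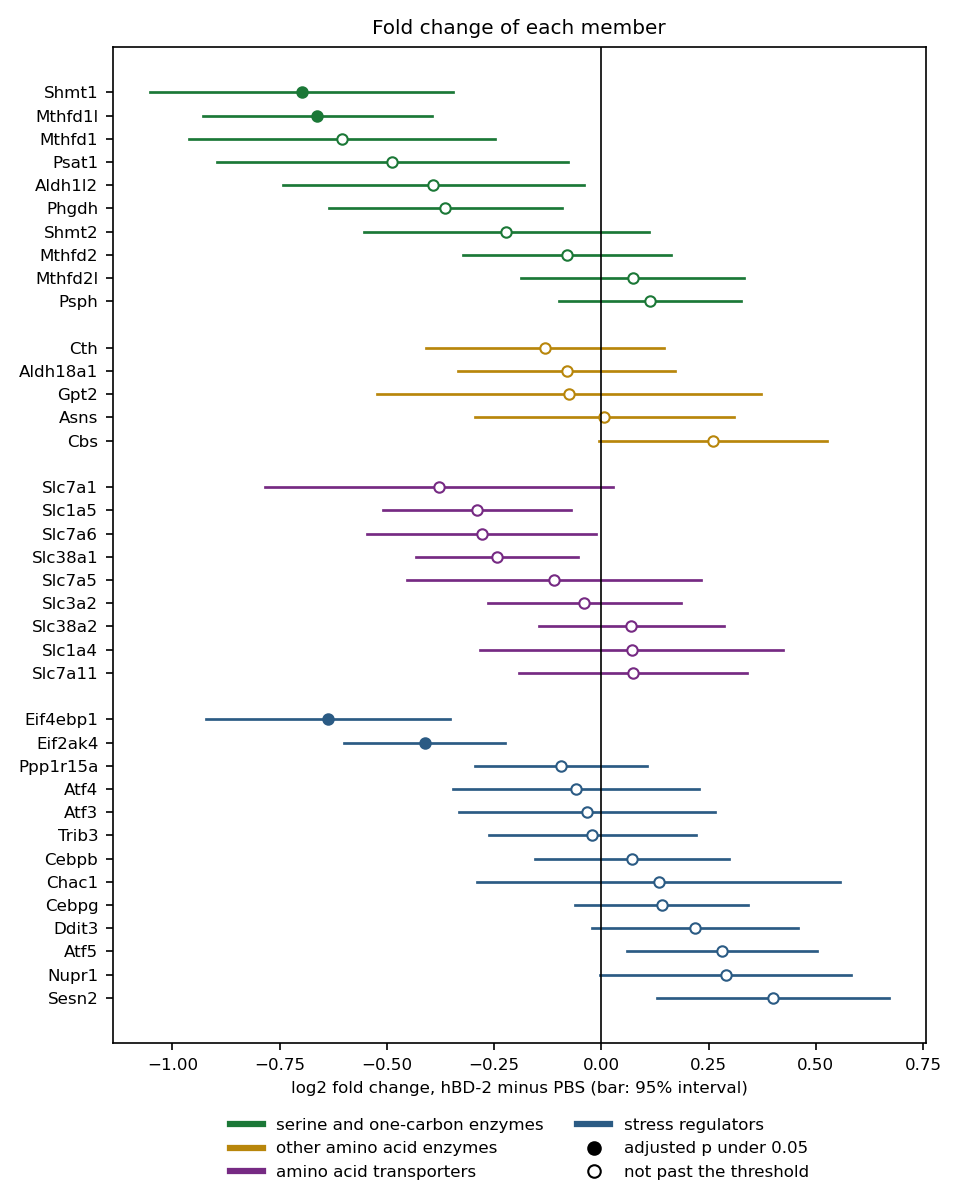
Log2 fold change of each of the 37 measured members, hBD-2 minus PBS, with its 95% interval from the limma fit (n = 4 arrays a group); colours mark the classes and filled circles the 4 members past the threshold. Shmt1, Mthfd1l, Eif4ebp1 and Eif2ak4 lie at -0.70, -0.66, -0.64 and -0.41, while Asns and Atf4 lie at 0.01 and -0.06.

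Several calls did not survive the loss of 1 array, while the fold changes kept their direction. With single arrays left out, 1 member was lower without replicate 3 or 4 of hBD-2, PBS replicate 1, PBS replicate 2 or PBS replicate 4, that member being Mthfd1l, and 3 to 5 were lower without any of the other 3 arrays. The log2 fold changes then ran from -0.82 to -0.56 for Shmt1, from -0.76 to -0.57 for Mthfd1l, from -0.72 to -0.55 for Eif4ebp1 and from -0.46 to -0.39 for Eif2ak4. Without the 5 arrays that left 1 member, the lower genes among all tested numbered 279 to 339, against 713 with every array. Without hBD-2 replicates 3 and 4 together none passed, and 112 of all genes were lower.

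All values are deposited log2 expression values (RMA), on which a dim gene's change is understated, and they compare a gene between arrays, not 1 gene with another. The defining T cell genes were present, and 0 of 12 T cell markers passed (limma; 1 had an unadjusted p under 0.05), with summed linear levels of 16250.5 to 17235 on hBD-2 arrays and 16318 to 17310 on PBS arrays. Some markers of other cells passed. Of 5 natural killer markers 1 passed, lower (Gzma, a granzyme that cytotoxic T cells also make), and 3 were lower at an unadjusted p under 0.05, with summed levels of 169 to 199.7 on hBD-2 arrays and 249 to 331 on PBS arrays. The receptors Klre1 and Klrk1 had log2 fold changes of -0.63 and -0.40 (adjusted p by limma = 0.0900 and 0.0797). Ncr1 and Klrb1c lay under the lower quartile of each array, Ncr1 at 2.71 to 3.19 on hBD-2 and 2.86 to 3.09 on PBS arrays, and Klrb1c at 2.74 to 3.53 on hBD-2 and 2.74 to 3.09 on PBS arrays. Of 6 mast cell and basophil markers 2 passed, both higher (Cpa3 and Fcer1a). At an unadjusted p under 0.05 (limma), 4 were higher and 1, Kit, lower (Kit log2 fold change -0.67, adjusted p by limma = 0.0744). The 6 markers summed to 168 to 237 on hBD-2 arrays and 175 to 206 on PBS arrays. Their mean log2 values did not overlap, at 4.58 to 5.00 on hBD-2 arrays and 4.39 to 4.48 on PBS arrays. B cell markers (0 of 7 passed; 0 with an unadjusted p under 0.05) summed to 168 to 562 on hBD-2 arrays and 184 to 350.0 on PBS arrays, and were highest on the arrays numbered 2 and 4 of both groups. Myeloid markers (1 of 9 lower, Itgam) summed to 127 to 173 on hBD-2 and 133 to 165 on PBS arrays. Erythroid and platelet markers (0 of 5 passed by limma; 2 with an unadjusted p under 0.05) summed to 343 to 422 on hBD-2 and 279 to 358 on PBS arrays. The call of Fcer1a ended without any of 4 arrays (limma adjusted p up to 0.0940) and with quantile normalization repeated (0.0538), and that of Itgam without any of 7 (up to 0.126), while those of Gzma and Cpa3 were kept without each of the 8 arrays in turn. The interquartile range of all values was 3.45 on hBD-2 replicates 3 and 4, 3.57 to 3.64 on the other hBD-2 arrays and 3.64 to 3.76 on PBS arrays. The part of these differences in the results below was not tested, and in bulk RNA fewer cells of a type and less RNA per cell cannot be told apart.

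Among the serine and one-carbon enzymes, 2 of 10 fell (20%, against 3.66% of all genes), 0 rose and 8 did not pass. At an unadjusted p under 0.05 (limma), 6 were lower and 0 higher, against 2499 and 1842 of all 19505 genes. The median level of the 10 was 8.28, against 5.45 over all genes. With dim genes left out, more than 3.66% of all genes kept were lower. The median log2 fold change of the 10 was -0.38. This median was -0.34 with quantile normalization repeated or with cyclic loess, -0.51 (hBD-2 replicate 1) to -0.29 (hBD-2 replicate 3) with 1 array left out, and -0.17 without hBD-2 replicates 3 and 4 together. The values of these and all other members on each array are drawn in the map of members by array.

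**Figure D2:**
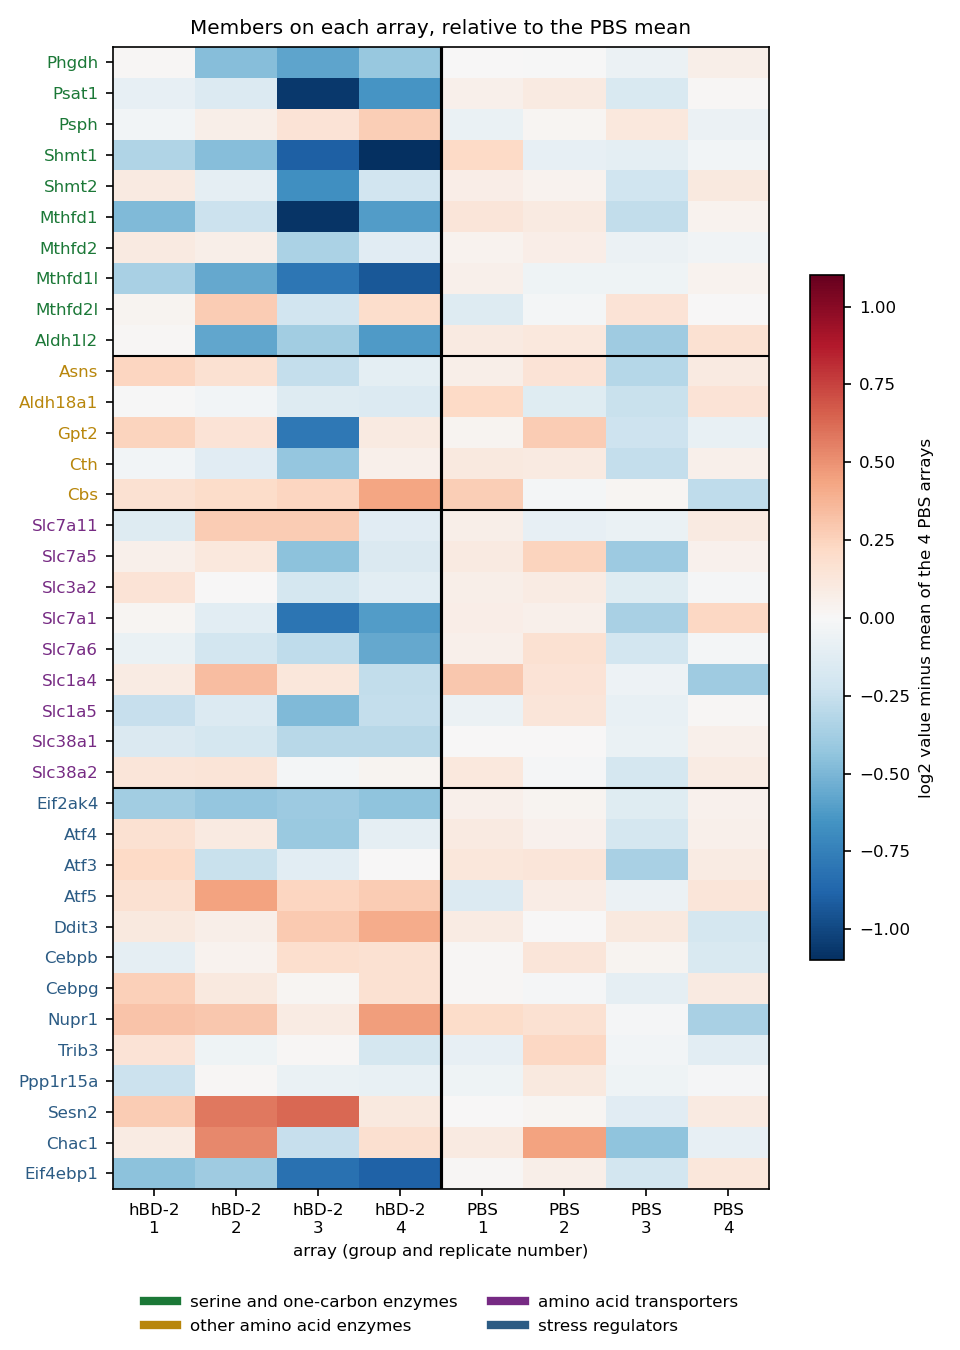
Each of the 37 members (rows, coloured by class) on each array (columns, hBD-2 left of PBS), as log2 value minus the mean of the 4 PBS arrays. Blue cells run through Shmt1, Mthfd1, Mthfd1l, Eif2ak4 and Eif4ebp1 on the 4 hBD-2 arrays, and the array numbered 3 is the lowest of both groups in 17 members.

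Shmt1, the cytosolic serine hydroxymethyltransferase, had log2 values of 6.94, 6.80, 6.37 and 6.17 on hBD-2 arrays 1 to 4, against 7.49, 7.18, 7.17 and 7.24 on PBS arrays 1 to 4. The groups did not overlap, and hBD-2 replicates 3 and 4 were the lowest arrays. It averaged 6.57 ± 0.363 with hBD-2 and 7.27 ± 0.151 with PBS (SD, n = 4 each), a log2 fold change of -0.70 (SE 0.162, limma adjusted p = 0.0357). Leaving out any of 6 arrays, 1 at a time, ended the call (limma adjusted p up to 0.103), and it was kept without replicate 1 or replicate 2 of the hBD-2 arrays. Shmt2, its mitochondrial counterpart, had values of 9.50, 9.30, 8.72 and 9.19 on hBD-2 arrays, against 9.47, 9.44, 9.19 and 9.50 on PBS arrays. Its groups overlapped, with only hBD-2 replicate 3 below all PBS arrays, and its log2 fold change was -0.22 (95% interval -0.55 to 0.11, limma adjusted p = 0.422). Whether Shmt1 and Shmt2 differed in their change was not tested.

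Mthfd1l, the mitochondrial enzyme that releases formate from the folate-bound carbon, had values of 8.80, 8.60, 8.36 and 8.23 on hBD-2 arrays, against 9.22, 9.12, 9.12 and 9.20 on PBS arrays. The 4 PBS arrays lay within a narrow band and all 4 hBD-2 arrays lay below it. The means were 8.50 ± 0.253 with hBD-2 and 9.16 ± 0.0531 with PBS (SD, n = 4 each), with a log2 fold change of -0.66 (SE 0.122, limma adjusted p = 0.0121). It was the member whose call was kept without each of the 8 arrays in turn (limma adjusted p from 0.00482 to 0.0448), though not without hBD-2 replicates 3 and 4 together (0.115) or without the arrays numbered 3 of both groups (0.0790).

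Mthfd1, a cytosolic enzyme that interconverts forms of the folate-bound carbon, had values of 7.17, 7.41, 6.57 and 7.04 on hBD-2 arrays, against 7.79, 7.75, 7.39 and 7.69 on PBS arrays. Here hBD-2 replicate 2 lay just above PBS replicate 3, so the groups overlapped. Its log2 fold change of -0.60 (SE 0.163) was close in size to that of Mthfd1l but did not pass (limma adjusted p = 0.0606). It passed without hBD-2 replicate 2 (0.0336), with the replicate number as a block (0.0196), with dim genes left out of the fit (0.0330) and with a variance trend (0.00523).

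Mthfd2, the mitochondrial dehydrogenase and cyclohydrolase known to be strongly induced in dividing cells, had values of 9.22, 9.18, 8.77 and 8.99 on hBD-2 arrays, against 9.15, 9.19, 9.05 and 9.08 on PBS arrays. The groups overlapped, with a log2 fold change of -0.08 and a 95% interval of -0.32 to 0.16. Mthfd2l, a related mitochondrial isoenzyme, had a log2 fold change of 0.07 (95% interval -0.19 to 0.33). Aldh1l2, a mitochondrial formyl tetrahydrofolate dehydrogenase, lay near the lower quartiles of the arrays, at 3.54 ± 0.288 with hBD-2 and 3.93 ± 0.260 with PBS (SD, n = 4 each), where a change may not show (log2 fold change -0.39, limma adjusted p = 0.180).

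The serine synthesis enzymes did not pass. Phgdh, which catalyses the first step, had values of 8.68, 8.20, 8.08 and 8.25 on hBD-2 arrays, against 8.67, 8.66, 8.60 and 8.73 on PBS arrays. All hBD-2 arrays but replicate 1, which lay among the PBS arrays, were below every PBS array, and the log2 fold change was -0.36 (95% interval -0.64 to -0.09, limma adjusted p = 0.118). Without hBD-2 replicate 1 it passed, at -0.49 (limma adjusted p = 0.0149), as it did with a variance trend (0.0201). Psat1, the aminotransferase of the middle step, had values of 9.71, 9.65, 8.74 and 9.16 on hBD-2 arrays, against 9.86, 9.90, 9.64 and 9.82 on PBS arrays. The hBD-2 arrays spanned about 1 log2 unit, with replicate 3 lowest, and the log2 fold change was -0.49 (95% interval -0.90 to -0.08, limma adjusted p = 0.157). With hBD-2 replicate 3 left out it was -0.30 (0.308), with hBD-2 replicates 3 and 4 both left out -0.12 (0.679), and it passed with a variance trend (0.0234). Psph, the phosphatase of the last step, ran the other way without passing, at 8.14 ± 0.129 with hBD-2 and 8.03 ± 0.0857 with PBS (log2 fold change 0.11, 95% interval -0.10 to 0.33).

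**Figure D3:**
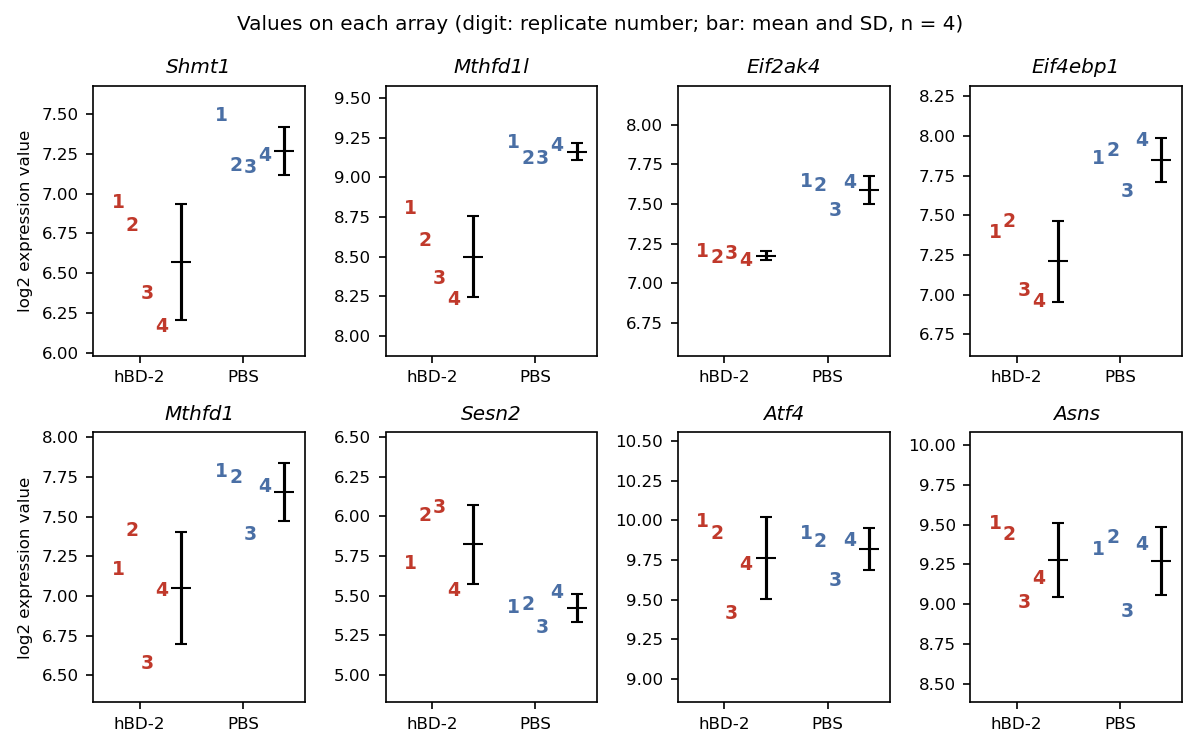
Deposited log2 values of 8 members on each array, hBD-2 left of PBS; the digits are replicate numbers, the bars mean and SD (n = 4), and every panel spans the same number of log2 units on its own axis. In the first 4 panels, the members that fell, all hBD-2 arrays lie below all PBS arrays, while Mthfd1, Atf4 and Asns overlap and Sesn2 is higher on all hBD-2 arrays.

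None of the 5 other amino acid enzymes passed (limma; 0 had an unadjusted p under 0.05). Their median log2 fold change was -0.07, which turned to 0.01 with quantile normalization repeated and to 0.00 with cyclic loess, and which ran from -0.15 without PBS replicate 3 to 0.10 without hBD-2 replicate 3. Asns, asparagine synthetase and a classical ATF4 target, had values of 9.51, 9.44, 9.01 and 9.16 on hBD-2 arrays, against 9.34, 9.42, 8.96 and 9.37 on PBS arrays. Its means were 9.28 ± 0.232 with hBD-2 and 9.27 ± 0.213 with PBS (SD, n = 4 each), and the array numbered 3 was the lowest of each group. The log2 fold change was 0.01 with a 95% interval of -0.30 to 0.31. Aldh18a1, which starts proline synthesis from glutamate, and Gpt2, the mitochondrial alanine aminotransferase, had log2 fold changes of -0.08 and -0.07. The transsulfuration enzymes Cth and Cbs, which lead from homocysteine to cysteine, had log2 fold changes of -0.13 and 0.26 (adjusted p by limma = 0.585 and 0.232).

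At an unadjusted p under 0.05 (limma), 3 of the 9 amino acid transporters were lower and 0 higher, against 2499 and 1842 of all 19505 genes. None of the 9 transporters passed. Their median log2 fold change was -0.11, or -0.03 with quantile normalization or cyclic loess, and ran from -0.24 without PBS replicate 3 to 0.00 without hBD-2 replicate 3 with 1 array left out. It was 0.07 without hBD-2 replicates 3 and 4 together. Slc1a5, a carrier of glutamine and other neutral amino acids, had values of 9.45, 9.55, 9.22 and 9.44 on hBD-2 arrays, against 9.64, 9.84, 9.62 and 9.72 on PBS arrays. The groups did not overlap, and the log2 fold change was -0.29 (95% interval -0.51 to -0.07, limma adjusted p = 0.122). Slc38a1, a sodium-coupled glutamine carrier, had values of 10.33, 10.29, 10.18 and 10.18 on hBD-2 arrays, against 10.49, 10.49, 10.42 and 10.55 on PBS arrays. These did not overlap either, with a log2 fold change of -0.24 (adjusted p by limma = 0.130). Both passed when the variance was fitted with a trend on level (limma adjusted p = 0.0119 and 0.00599) and under no other alternative.

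The arginine and lysine carriers Slc7a1 and Slc7a6 had log2 fold changes of -0.38 and -0.28 (adjusted p by limma = 0.256 and 0.207), with overlapping groups. The large neutral amino acid carrier of activated T cells consists of Slc7a5 and its partner chain Slc3a2. Slc7a5 had values of 9.76, 9.81, 9.25 and 9.54 on hBD-2 arrays, against 9.80, 9.95, 9.31 and 9.75 on PBS arrays, and a log2 fold change of -0.11 (95% interval -0.45 to 0.23). Within each group its values differed by more than this, with the array numbered 3 lowest in both. Slc3a2 had a log2 fold change of -0.04 (95% interval -0.26 to 0.18). Slc38a2, which is induced by amino acid shortage, was at 10.57 ± 0.0803 with hBD-2 and 10.50 ± 0.141 with PBS, and the cystine carrier Slc7a11 and the serine and alanine carrier Slc1a4 had log2 fold changes of 0.07 and 0.07.

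Among the 13 stress regulators, 2 fell (15.4%, against 3.66% of all genes), 0 rose and 11 did not pass. At an unadjusted p under 0.05 (limma), 2 were lower and 2 higher, against 2499 and 1842 of all 19505 genes. The median level of the 13 was 6.36, against 5.45 over all genes. With dim genes left out, more than 3.66% of all genes kept were lower. The median log2 fold change of the 13 was 0.07, which ran from -0.02 without PBS replicate 3 to 0.12 without PBS replicate 2. Eif2ak4 encodes GCN2, the kinase that senses uncharged transfer RNA. It had values of 7.20, 7.16, 7.19 and 7.15 on hBD-2 arrays, against 7.64, 7.61, 7.46 and 7.64 on PBS arrays. The hBD-2 arrays were nearly equal to each other and all lay below the lowest PBS array, replicate 3. The means were 7.17 ± 0.0259 with hBD-2 and 7.59 ± 0.0871 with PBS (SD, n = 4 each), a log2 fold change of -0.41 (SE 0.0859, limma adjusted p = 0.0232). Leaving out any of 6 arrays, 1 at a time, ended the call (limma adjusted p up to 0.0768), and it was kept without hBD-2 replicate 1 or PBS replicate 3, while the log2 fold change was -0.40 without hBD-2 replicates 3 and 4 together.

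Eif4ebp1 encodes the translation repressor 4E-BP, an ATF4 target that binds the cap-binding factor eIF4E. It had values of 7.39, 7.46, 7.03 and 6.96 on hBD-2 arrays, against 7.86, 7.91, 7.65 and 7.97 on PBS arrays. The groups did not overlap, and hBD-2 replicates 3 and 4 were the lowest arrays. Means were 7.21 ± 0.252 with hBD-2 and 7.85 ± 0.140 with PBS (SD, n = 4 each), a log2 fold change of -0.64 (SE 0.130, limma adjusted p = 0.0212). Leaving out any of 5 arrays, 1 at a time, ended the call (limma adjusted p up to 0.0715), and it was kept without hBD-2 replicate 1, hBD-2 replicate 2 or PBS replicate 3.

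Atf4 itself had values of 9.99, 9.92, 9.41 and 9.72 on hBD-2 arrays, against 9.92, 9.87, 9.62 and 9.87 on PBS arrays. The groups overlapped and replicate 3 was lowest in each, with a log2 fold change of -0.06 and a 95% interval of -0.35 to 0.23. ATF4 is controlled mainly in translation, which RNA levels do not show. Its partner Cebpg, a C/EBP protein that dimerises with ATF4, and Cebpb, another C/EBP factor, had log2 fold changes of 0.14 and 0.07. The downstream factors Atf3 and Ddit3, which encodes CHOP, had log2 fold changes of -0.03 and 0.22 (adjusted p by limma = 0.910 and 0.269). A second Ddit3 probe set, dimmer on every array, had a log2 fold change of 0.28 (unadjusted p by limma = 0.0422).

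The highest log2 fold change among the members was that of Sesn2, sestrin 2, a stress-induced leucine sensor upstream of mTORC1 that is also a p53 target. Its values were 5.70, 6.00, 6.05 and 5.53 on hBD-2 arrays, against 5.42, 5.45, 5.30 and 5.52 on PBS arrays. The groups did not overlap, but hBD-2 replicate 4 lay only just above PBS replicate 4. The log2 fold change was 0.40 (SE 0.124, 95% interval 0.13 to 0.67) and did not pass (limma adjusted p = 0.0903), except with dim genes left out of the fit (0.0479). Atf5, a related stress factor, had values of 6.07, 6.34, 6.14 and 6.18 on hBD-2 arrays, against 5.75, 5.98, 5.83 and 6.03 on PBS arrays. These too did not overlap, with a log2 fold change of 0.28 (95% interval 0.06 to 0.50, limma adjusted p = 0.133). Nupr1, a small stress-induced chromatin protein, had a log2 fold change of 0.29 (adjusted p by limma = 0.228), with overlapping groups.

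Feedback and late targets of the programme did not pass. Trib3, a pseudokinase that restrains ATF4 and AKT, had values of 6.52, 6.32, 6.38 and 6.17 on hBD-2 arrays, against 6.28, 6.60, 6.34 and 6.25 on PBS arrays, and a log2 fold change of -0.02 (95% interval -0.26 to 0.22). Ppp1r15a, the phosphatase subunit GADD34 that reverses eIF2 phosphorylation, had a log2 fold change of -0.09 (95% interval -0.30 to 0.11). Chac1, which degrades glutathione, had values of 5.09, 5.53, 4.74 and 5.18 on hBD-2 arrays, against 5.10, 5.44, 4.55 and 4.91 on PBS arrays. It varied within each group by more than between them, with replicate 2 highest and replicate 3 lowest in both, and its log2 fold change was 0.13 (95% interval -0.29 to 0.56).

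**Figure D4:**
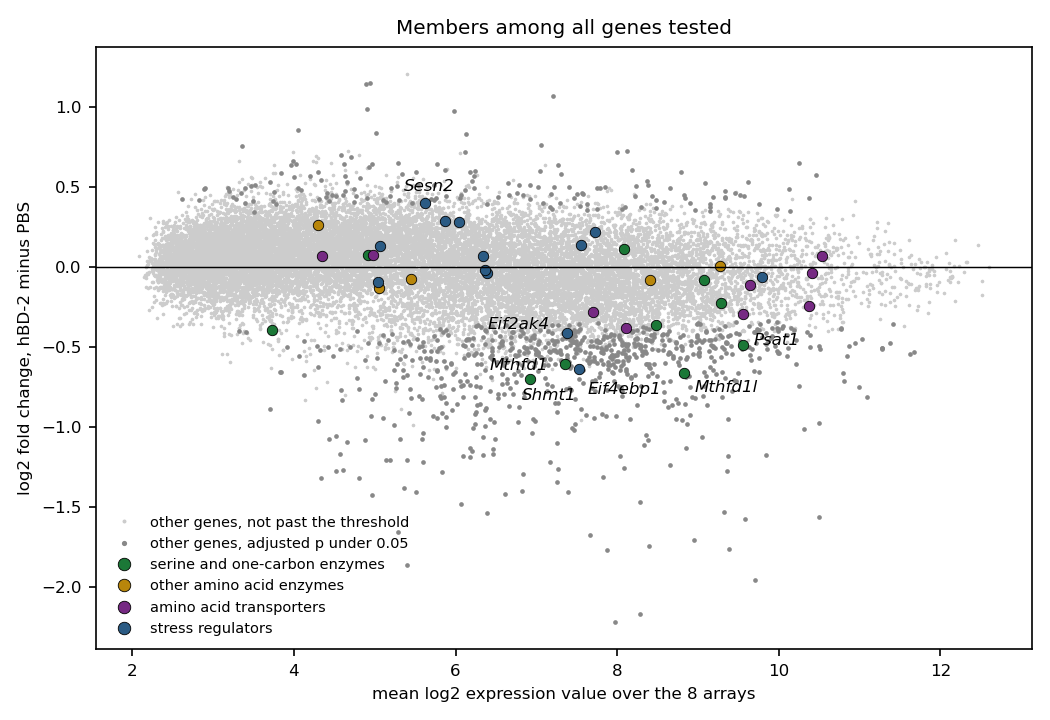
Log2 fold change (hBD-2 minus PBS) against the mean log2 value over the 8 arrays for all 19505 genes; light grey points did not pass, dark grey points passed, and coloured circles are the 37 members by class. The labelled Shmt1, Mthfd1l, Eif4ebp1 and Eif2ak4 lie among the lower genes that passed, and the highest member, Sesn2, lies at 0.40.

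ATF4 with a C/EBP partner binds a composite element whose core can be written TGATGNAA. This sequence was searched on both strands from 250 bases before to 50 bases after the start of each gene (RefSeq, GRCm38.p6), where 32 of the 38 genes had a window. It was found in 8 of the 32 (25%), against 4.51% of all 27025 genes with a window, 3.36% of the 595 lower genes with a window and 3.17% of the 126 higher genes. Members were chosen partly as genes of the ATF4 stress programme, so their share is no result of these arrays. The 8 were Asns, Atf3, Chac1, Nupr1, Pycr1, Slc1a4, Slc7a11 and Trib3. None of the 7 that were measured passed the threshold or had an unadjusted p under 0.05 (limma), while 4.46% of all genes passed in either direction. So few genes cannot show whether genes with a match changed less than others. The windows of Shmt1, Mthfd1l and Eif2ak4, which fell, did not hold these letters, and Eif4ebp1 had no window. Stretches before the start are shown for 5 genes with a match and for 2 of those that fell, 5′ to 3′ on the gene's own strand, with the matches in capitals. Asns (chr6:7693210-7693289, minus strand) has its match first base at -23 from the start, Atf3 (chr1:191183394-191183473, minus strand) at -110, Chac1 (chr2:119351022-119351101, plus strand) at -193 and Nupr1 (chr7:126625531-126625610, minus strand) at -110. Slc7a11 (chr3:50443614-50443713, minus strand) has 2 matches, at -66 and -47, on opposite strands. Shmt1 (chr11:60811266-60811365, minus strand) and Mthfd1l (chr10:3972975-3973074, plus strand) are shown from -100 to -1.
Asns: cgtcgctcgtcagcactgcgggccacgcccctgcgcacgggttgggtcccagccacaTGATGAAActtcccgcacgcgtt
Atf3: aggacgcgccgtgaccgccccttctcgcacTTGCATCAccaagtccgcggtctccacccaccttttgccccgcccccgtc
Chac1: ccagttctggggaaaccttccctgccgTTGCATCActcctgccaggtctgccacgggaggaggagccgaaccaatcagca
Nupr1: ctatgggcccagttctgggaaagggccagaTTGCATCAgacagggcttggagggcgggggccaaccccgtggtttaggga
Slc7a11: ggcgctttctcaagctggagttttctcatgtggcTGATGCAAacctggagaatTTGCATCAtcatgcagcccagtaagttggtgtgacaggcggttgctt
Shmt1: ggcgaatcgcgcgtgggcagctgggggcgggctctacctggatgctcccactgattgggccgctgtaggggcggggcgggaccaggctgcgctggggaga
Mthfd1l: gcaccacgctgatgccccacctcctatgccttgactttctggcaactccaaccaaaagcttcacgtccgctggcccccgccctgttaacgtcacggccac
A match describes the letters and not a bound site. Slc7a11, with the pair of matches, had values of 4.79, 5.22, 5.22 and 4.82 on hBD-2 arrays, against 5.00, 4.85, 4.87 and 5.03 on PBS arrays, a log2 fold change of 0.07 (95% interval -0.19 to 0.34).

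The arrays numbered 3 stood low for these genes in both groups. hBD-2 replicate 3 was the lowest hBD-2 array for 19 of the 37 members (51.4%, against 27.1% of all genes), and PBS replicate 3 was the lowest PBS array for 27 (73.0%, against 25.5% of all genes). Replicate 3 was the lowest of both groups for 17 members (45.9%), against 9.38% of all genes. These 17 were Phgdh, Psat1, Shmt2, Mthfd1, Mthfd2, Asns, Gpt2, Cth, Slc7a5, Slc3a2, Slc7a1, Slc1a5, Slc38a1, Slc38a2, Atf4, Cebpg and Chac1. The arrays numbered 1, 2 and 4 were the lowest of both groups for 2, 0 and 2 members. The labels do not say whether arrays of a number share a mouse or a culture day. Without both arrays numbered 3, a setting chosen after these values were seen, Shmt1, Mthfd1l, Eif4ebp1 and Eif2ak4 had log2 fold changes of -0.67, -0.63, -0.64 and -0.46 and none passed (limma adjusted p from 0.0572 to 0.136).

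**Figure D5:**
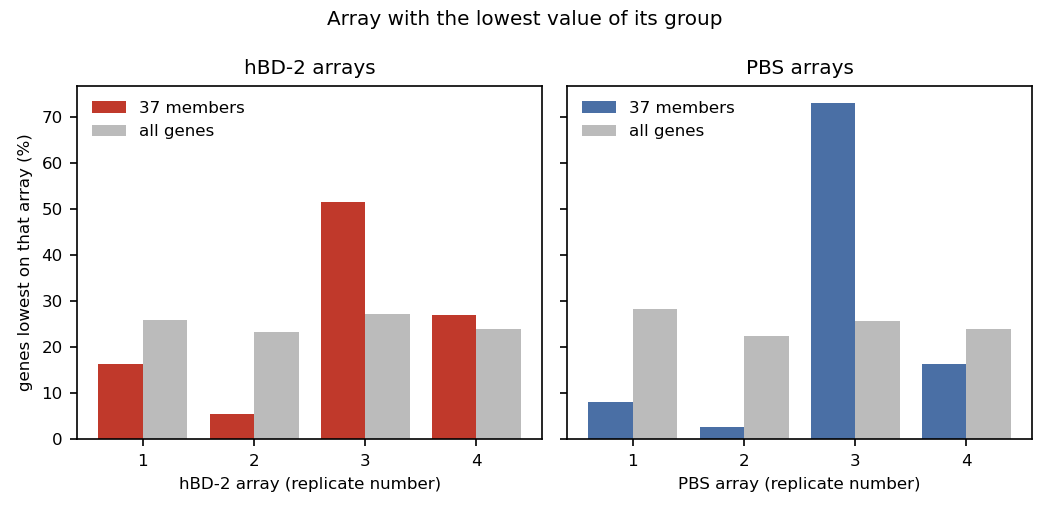
Percentage of the 37 members (coloured bars) and of all 19505 genes (grey bars) whose lowest value within a group lay on each array, hBD-2 arrays left and PBS arrays right, by replicate number. Replicate 3 holds the lowest value of 51.4% of members among hBD-2 arrays and of 73.0% among PBS arrays, against 27.1% and 25.5% of all genes.

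Neighbouring genes of these pathways were read in the same fit. Of 21 other measured genes of the folate and methionine cycles, 2 fell and 0 rose (limma), against 3.66% lower and 0.800% higher over all genes. At an unadjusted p under 0.05, 6 were lower and 0 higher, against 2499 and 1842 of all 19505 genes. The median log2 fold change of the 21 was -0.10. Ahcy, which clears the product of methylation reactions, was 1.56-fold lower, at 8.86 ± 0.246 with hBD-2 and 9.51 ± 0.0940 with PBS (SD, n = 4 each, limma adjusted p = 0.0153). Tyms, which uses a folate-bound carbon to make thymidylate, was 1.52-fold lower (limma adjusted p = 0.0252). Leaving out any of 3 arrays for the first and 6 for the second, 1 at a time, ended the call (limma adjusted p up to 0.0540 and 0.0764).

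Of 24 other integrated stress response genes, 4 fell and 1 rose (limma), against 3.66% lower and 0.800% higher over all genes. At an unadjusted p under 0.05, 5 were lower and 3 higher, against 2499 and 1842 of all 19505 genes. The median log2 fold change of the 24 was -0.05. Stc2, a secreted glycoprotein induced by ATF4, was 2.31-fold lower, at 4.53 ± 0.354 with hBD-2 and 5.74 ± 0.195 with PBS (SD, n = 4 each, limma adjusted p = 0.00258). Vldlr, a lipoprotein receptor that ATF4 and hypoxia induce, was 1.91-fold lower (limma adjusted p = 0.000816). Both kept their calls without each of the 8 arrays in turn. Eif2b1, a subunit of the exchange factor that phosphorylated eIF2 blocks, was 1.40-fold lower, and Eif2s3x, a subunit of eIF2, was 1.31-fold lower. Jdp2, a repressor that binds ATF and AP-1 sites, was 1.41-fold higher. The calls of Eif2b1, Eif2s3x and Jdp2 ended when any of 5, 7 and 6 arrays was left out (limma adjusted p up to 0.0831, 0.123 and 0.105), and that of Eif2s3x also with quantile normalization repeated (0.0754) and with cyclic loess (0.0752).

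Of 24 other amino acid transporters, 2 rose and 0 fell (limma), against 0.800% higher and 3.66% lower over all genes. At an unadjusted p under 0.05, 4 were lower and 3 higher, against 2499 and 1842 of all 19505 genes. The median log2 fold change of these 24 was 0.04. Slc38a9, the lysosomal arginine sensor of mTORC1, was 1.28-fold higher, at 10.31 ± 0.0951 with hBD-2 and 9.96 ± 0.0687 with PBS (SD, n = 4 each, limma adjusted p = 0.0492). Slc7a7, a cationic amino acid exporter, was 1.48-fold higher (limma adjusted p = 0.0405). Leaving out any of 7 arrays for the first and 6 for the second, 1 at a time, ended the call (limma adjusted p up to 0.133 and 0.117), and that of Slc7a7 also with quantile normalization repeated (0.0627) and with cyclic loess (0.0667).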

How the data were processed

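RNA of 8 mouse T cell samples was hybridised to expression arrays, 1 a sample. The authors deposited log2 expression values for 22203 probe sets, made with oligo and RMA per the submitters' processing notes. Neither tool versions nor an annotation build are stated in what was used here. The platform annotation named 19572 probe sets with 1 gene each and left 2631 unnamed. All 19572 symbols were found by gene identifier in GRCm38.p6 and 0 changed. Where probe sets shared a gene (55 genes), the brightest on average was kept, leaving 19505 genes with no filter on dim values. hBD-2 was compared with PBS using limma 3.58.1 in R 4.3.3 (lmFit, eBayes, no block), as a two-sided test, adjusting p by Benjamini and Hochberg over the 19505 genes, at 0.05. The fit was tested on simulated data. The number of arrays limits the precision. No scanner intensities were used here, so detection is unknown.

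The members, their classes, the other gene lists and the tests were chosen with earlier results of these data known, and no list was tested as a set. All members may be named, and of the other lists the genes past the threshold or, with none, up to 4 with the smallest p. Ncr1, Klrb1c, Klre1, Klrk1 and Kit fall outside that rule, chosen once values were known. Alternatives were the replicate number as a block, quantile normalization, cyclic loess, a variance trend, robust variance estimation, leaving out dim genes (under percentile 40 of mean level), the mean over probe sets, and leaving out arrays.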

Additional observations from a re-analysis of the deposited data

Results flagged for a closer look

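A single array lay far from the other 3 of its group (by Dixon's test at the 95% level) in 6 of the 74 combinations of member and group. Chance alone gives such a gap in about 1 of 20 independent combinations. The 74 share the same 8 arrays and are not independent, so this rate gives no test of the 6. All 6 were low values on an array numbered 3. On PBS replicate 3, Atf4 was at 9.62, against 9.87 to 9.92 on the other PBS arrays. Atf3 was at 6.05 there, against 6.50 to 6.54. Eif2ak4 was at 7.46, against 7.61 to 7.64, Cth at 4.85, against 5.18 to 5.22, and Aldh1l2 at 3.54, against 4.03 to 4.10. On hBD-2 replicate 3, Gpt2 was at 4.70, against 5.59 to 5.73 on the other hBD-2 arrays.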

How the results depend on the processing

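The 17 alternatives left the direction of the 4 members that fell as reported, and their calls were kept with quantile normalization, cyclic loess, robust variance estimation, the variance trend, dim genes left out and the mean over probe sets. With a variance trend 9 members were lower in place of 4, and 1558 of all genes in place of 713. With dim genes left out, which kept 34 of the 37 members, 5 members were lower in place of 4 and 1 was higher in place of 0. Of the genes kept, 1192 were then lower and 349 higher, in place of 713 and 156 of all 19505 genes. No member was lower without hBD-2 replicates 3 and 4 together (0, with 112 of all genes lower) or without the arrays numbered 3 of both groups (0, with 261), both with fewer arrays. With single arrays left out the lower members numbered 1 to 5, the lower genes of all 279 to 1074, and the median of the serine and one-carbon enzymes was -0.51 to -0.29. That median was -0.17 without hBD-2 replicates 3 and 4. With the replicate number as a block, a pairing that the labels do not state, 5 members were lower, Mthfd1 being the added call (limma adjusted p = 0.0196), and 698 of all genes were lower and 159 higher; the block ended no member's call. Deviations of same-numbered arrays from their group means correlated at 0.18, 0.06, 0.16 and 0.00 over genes for numbers 1 to 4, and replicates 1, 2 and 3 of hBD-2, but not replicate 4, correlated best with the PBS array of their own number. This is a hint from the data, and whether same-numbered arrays share a source is not settled. With quantile normalization 521 of all genes were lower and 227 higher, and with cyclic loess 576 and 220. Of 626 values of single members under the alternatives, 25 lost a call, 10 gained one, and 43, in 15 members that did not pass, changed sign. Signal over background could not be judged without scanner values.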
